A study of Arabidopsis thaliana with 15 samples.

Results

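The receptors of the plant hormone gibberellin and the growth repressors they act on were described at the transcript level in Arabidopsis thaliana seedlings grown with and without UV-B. The members were named by gene family: the 3 receptor genes GID1A (AT3G05120), GID1B (AT3G63010) and GID1C (AT5G27320), and the 5 DELLA genes RGA (AT2G01570), GAI (AT1G14920), RGL1 (AT1G66350), RGL2 (AT3G03450) and RGL3 (AT5G17490). These are 8 of the 33602 genes in the count table, and all 8 passed the filter on low counts, which left 20833 genes. RNA came from whole seedlings 4 days old, 30 to a sample, kept in continuous white light of 3.6 µmol per square metre and second. The 5 groups had 3 libraries each, 15 in all: pif4-101 pif5-1, a double mutant of PIF4 and PIF5, bHLH factors that drive elongation, in white light; uvr8-6, a mutant of the UV-B photoreceptor UVR8, with 6 h of added narrowband UV-B (0.06 mW per square cm); uvr8-6 in white light; Col-0 wild type with the same 6 h of UV-B; and Col-0 wild type in white light. Seedlings without UV-B were shielded by a filter that cuts it off. Each genotype other than wild type is 1 mutant line, so an effect of the lesion and one of the line cannot be told apart, and the replicates came from separate plates.

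Gibberellin is a diterpenoid hormone that promotes stem and hypocotyl elongation, germination and flowering. It is bound by GID1, a soluble nuclear receptor related to hormone-sensitive lipases, and the hormone-loaded receptor then grips the N-terminal DELLA domain of the repressors. The DELLA protein is handed to the F-box protein SLY1 for ubiquitination and degradation, so the protein level of DELLAs is set largely after transcription. In a feedback, DELLA proteins are known to raise transcription of the receptor genes GID1A and GID1B. DELLA proteins carry a C-terminal GRAS domain and restrain growth by holding transcription factors such as the PIFs off DNA, and by acting as coactivators with others such as the IDD zinc finger proteins. RGA and GAI are the main repressors of vegetative growth, RGL2 is known for restraining germination, and RGL1 and RGL3 for roles in seeds, flowers and stress responses. RNA-seq reads measure the transcripts and not the proteins.

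The stretch that gives the repressors their name is shown first because it is what the receptors contact and what the family shares. The 60 coding bases below start at the DELLA motif of each gene and run 5′ to 3′ on the coding strand. They were read from the RefSeq genome TAIR10.1, and capitals mark the 15 bases at the position of the motif.
RGA (chr2:257156-257215, minus strand): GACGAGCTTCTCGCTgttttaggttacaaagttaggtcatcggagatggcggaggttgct
GAI (chr1:5149495-5149554, plus strand): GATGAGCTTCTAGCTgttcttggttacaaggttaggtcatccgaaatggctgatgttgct
RGL1 (chr1:24748420-24748479, plus strand): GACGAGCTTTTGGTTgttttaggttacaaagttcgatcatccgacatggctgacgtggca
RGL2 (chr3:821091-821150, minus strand): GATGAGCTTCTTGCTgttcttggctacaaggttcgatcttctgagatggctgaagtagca
RGL3 (chr5:5765729-5765788, minus strand): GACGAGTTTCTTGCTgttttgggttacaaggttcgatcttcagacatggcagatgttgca
Against RGA, the stretch of GAI differs at 9 of 60 bases, that of RGL1 at 11, that of RGL3 at 12 and that of RGL2 at 14. Within the 15 capital bases the differences are 2 for GAI, 2 for RGL2, 2 for RGL3 and 3 for RGL1. Over the aligned coding regions RGA and GAI are 81.5% identical, RGL2 and RGL3 76.7%, and the other DELLA pairs between 65.5% and 69.1%. Among the receptors GID1A and GID1C are 83.8% identical, while GID1B shares 70.2% with GID1A and 70.4% with GID1C. The longest run of identical transcript bases between 2 members is 35 bases, in GID1A and GID1C, and no window of 100 bases, the length of the reads, from any member transcript was found elsewhere in the genome.

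The members whose transcripts moved under UV-B in wild type include GID1B, which was higher, and RGL1 and RGL3, which were lower. Their promoters are printed as the 250 bases before the annotated start, 5′ to 3′ on the strand of the gene, from RefSeq TAIR10.1.
GID1B promoter (chr3:23288993-23289242, plus strand): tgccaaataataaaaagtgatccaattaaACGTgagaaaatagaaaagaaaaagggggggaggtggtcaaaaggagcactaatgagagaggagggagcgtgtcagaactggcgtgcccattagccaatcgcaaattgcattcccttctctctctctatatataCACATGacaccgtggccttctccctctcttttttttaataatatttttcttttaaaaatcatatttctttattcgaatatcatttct
RGL1 promoter (chr1:24747855-24748104, plus strand): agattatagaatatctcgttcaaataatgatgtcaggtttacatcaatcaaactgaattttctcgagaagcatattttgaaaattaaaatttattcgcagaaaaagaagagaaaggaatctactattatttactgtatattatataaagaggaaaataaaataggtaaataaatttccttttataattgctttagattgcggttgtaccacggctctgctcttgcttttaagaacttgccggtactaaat
RGL3 promoter (chr5:5766247-5766496, minus strand): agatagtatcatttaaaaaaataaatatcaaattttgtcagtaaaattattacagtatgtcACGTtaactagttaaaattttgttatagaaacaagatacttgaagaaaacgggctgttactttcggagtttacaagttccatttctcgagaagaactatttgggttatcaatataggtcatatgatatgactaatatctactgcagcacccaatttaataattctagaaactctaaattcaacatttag
Capitals mark the letters of 3 motifs searched on both strands: CACGTG, the G-box that bHLH and bZIP factors such as the PIFs and HY5 bind; CACATG, whose reverse reading is CATGTG, a related E-box; and ACGT, the core that also lies inside CACGTG. None of the 8 members had a CACGTG in this window, against 6.49% of the 27443 gene promoters of the same length. GID1B alone had a CACATG, which 11.1% of promoters hold. An ACGT stood once in GID1A, GID1B, GID1C and RGL3, and 44.1% of promoters hold at least 1. These are matches of letters in a short window and say nothing of binding.

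Each library held 19271180 to 30406689 counted reads. Levels are given as CPM, read counts scaled to a common library size and adjusted for composition, and 1 CPM stood for 19.2 to 30.7 reads. UVR8 had 13.8 to 19.0 CPM in the uvr8-6 libraries and 81.5 to 109.3 CPM in all others. PIF5 had 4.65 to 5.46 CPM in pif4-101 pif5-1 and 77.1 to 136.1 CPM in wild type in white light. PIF4 reads, 79.4 to 99.97 CPM in pif4-101 pif5-1 and 62.1 to 168 CPM in wild type in white light, overlapped and do not check the pif4-101 label. Markers of green tissue and of root were present in every library and their summed levels stand beside the results they move with. Replicate 2 was the lowest library of both white-light groups, wild type and uvr8-6, in GAI and RGL3. Results that use those libraries are also given without them where that changes a call.

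**Figure D1:**
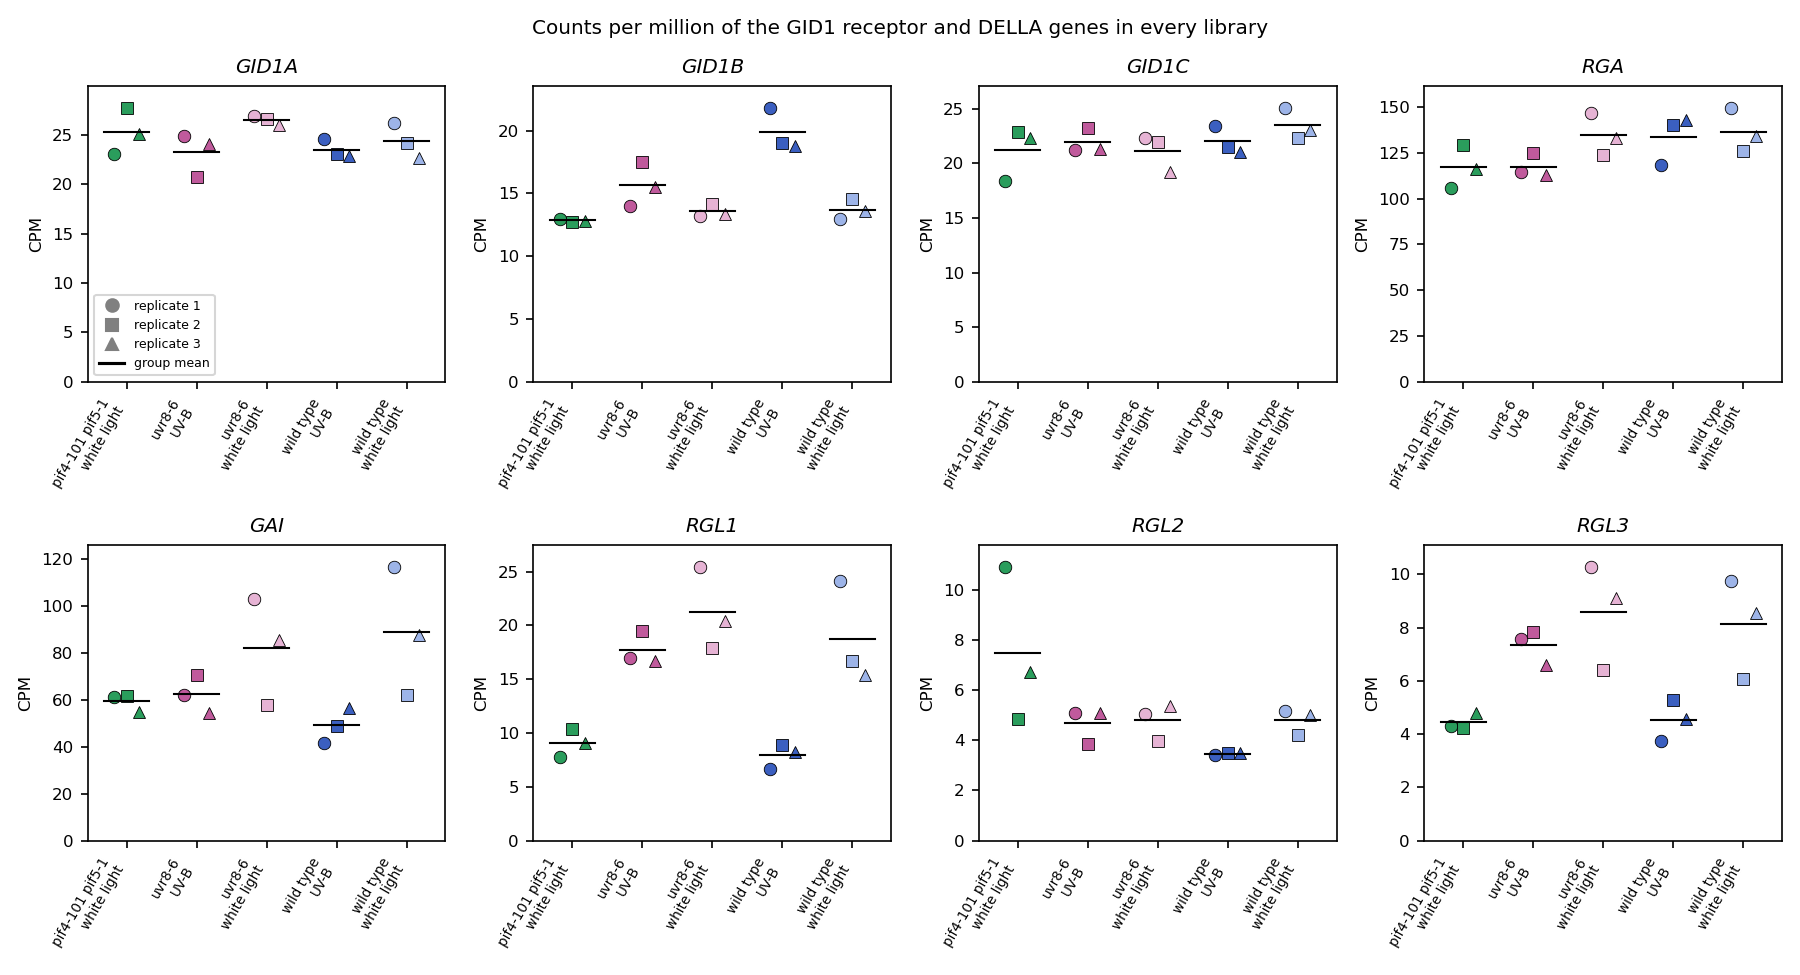
CPM of each member (vertical axes, starting at 0) in each of the 15 libraries, by group (horizontal axis); symbols are replicates and bars are group means of 3 libraries. GID1B is highest in the 3 UV-B libraries of wild type (18.8 to 21.8 CPM), while RGL1 is lowest there (6.65 to 8.89 CPM) and in pif4-101 pif5-1 (7.76 to 10.4 CPM).

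Whether 6 h of UV-B changed the transcripts of these genes was asked first in wild type. One receptor, GID1B, was higher and 3 DELLA genes, GAI, RGL1 and RGL3, were lower, while GID1A, GID1C, RGA and RGL2 did not pass the test. Of the 8 members 4 were called by edgeR's quasi-likelihood test at a Benjamini-Hochberg adjusted p under 0.05, against 27.4% of all genes tested. The 1 member higher stands against 16.1% of genes called higher, and the 3 lower against 11.3% called lower. Over all genes that split was 3354 higher and 2346 lower, or 2647 higher and 3864 lower with upper-quartile scaling, under which the same 1 and 3 members were called. The median log2 fold change of the members was -0.28, against -0.01 for all genes tested. In whole seedlings a lower transcript level from fewer cells of a type and from less RNA per cell cannot be told apart.

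GID1B, one of the 3 receptors, had 21.8, 19.0 and 18.8 CPM under UV-B and 13.0, 14.6 and 13.6 CPM in white light. The groups did not overlap, and the UV-B mean was 1.45 times that in white light (log2 fold change 0.53 ± 0.10 SE, edgeR adjusted p = 0.000973). Its sister GID1A had 22.8 to 24.6 CPM under UV-B and 22.6 to 26.2 CPM in white light, with a log2 fold change of -0.05 (95% interval -0.25 to 0.15). GID1C had 21.1 to 23.5 CPM under UV-B and 22.3 to 25.1 CPM in white light, with a log2 fold change of -0.09 (95% interval -0.31 to 0.12). UV-B and white-light libraries overlapped for GID1A and for GID1C. Across the 5 groups GID1B was highest in wild type under UV-B, followed by uvr8-6 under UV-B, and the libraries of these neighbours did not overlap.

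RGL1, the DELLA gene with the largest fitted change, had 6.65, 8.89 and 8.24 CPM under UV-B and 24.2, 16.7 and 15.4 CPM in white light. Every UV-B library was below every white-light library, and the level was 2.36-fold lower under UV-B (log2 fold change -1.24 ± 0.18 SE, edgeR adjusted p = 0.000177). GAI, a main repressor of stem growth, had 41.6, 48.9 and 56.6 CPM under UV-B and 117, 62.0 and 87.7 CPM in white light. The groups did not overlap, with white-light replicate 2 the closest to the UV-B libraries, and the fitted log2 fold change was -0.85 ± 0.22 SE (edgeR adjusted p = 0.00926). Without white-light replicate 1 of wild type, the highest library, the GAI call ended (log2 fold change -0.61, edgeR adjusted p = 0.0551). RGL3 had 3.76, 5.27 and 4.58 CPM under UV-B and 9.76, 6.08 and 8.54 CPM in white light, again with no overlap. Its log2 fold change was -0.84 ± 0.20 SE (edgeR adjusted p = 0.00604).

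RGA, the most abundant member in every library, had 119, 140.0 and 143 CPM under UV-B and 150, 126 and 134 CPM in white light. The groups overlapped, and its log2 fold change of -0.03 had a 95% interval of -0.25 to 0.19. RGL2, the germination repressor, had 3.41, 3.50 and 3.49 CPM under UV-B and 5.16, 4.22 and 5.02 CPM in white light. These groups did not overlap, yet the log2 fold change of -0.47 ± 0.25 SE missed the threshold in the fit over all libraries (edgeR adjusted p = 0.177). Fitted on the 6 wild-type libraries of this comparison alone it passed narrowly (log2 fold change -0.49, edgeR adjusted p = 0.0499). In all, 5 of 8 members had groups with no overlap between UV-B and white light, against 42.4% of all genes tested.

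**Figure D2:**
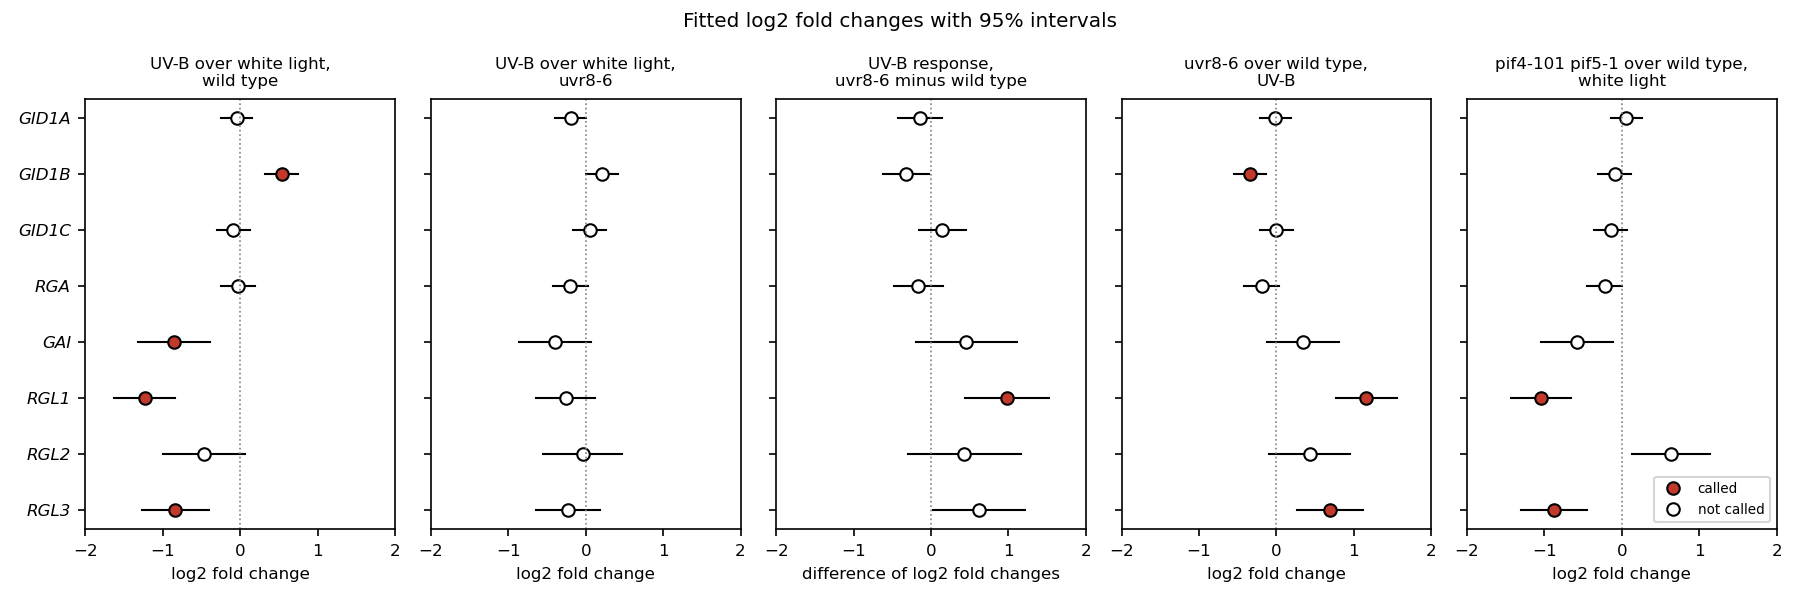
Fitted log2 fold change (horizontal axes; a difference of log2 fold changes in the middle panel) of each member in 5 comparisons, with 95% intervals; filled points passed an edgeR adjusted p of 0.05. In wild type GID1B lies right of 0 at 0.53 and GAI, RGL1 and RGL3 lie left, and no point is filled in uvr8-6.

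In uvr8-6, which lacks the photoreceptor, the same exposure moved none of the members past the test. None of the 8 was called by edgeR, none had an unadjusted p under 0.05, and neither DESeq2 nor limma-voom called any, against a background of 1.12% of genes called by edgeR in this comparison, 0.85% higher and 0.269% lower. GID1B had 14.0, 17.5 and 15.5 CPM under UV-B and 13.2, 14.1 and 13.4 CPM in white light in this mutant. Its groups overlapped, with a log2 fold change of 0.21 (95% interval -0.00 to 0.42). RGL1 had 17.0, 19.5 and 16.7 CPM under UV-B and 25.4, 17.9 and 20.4 CPM in white light, which overlap, and a log2 fold change of -0.26 (95% interval -0.64 to 0.12). RGL3 had 7.57, 7.84 and 6.61 CPM under UV-B and 10.3, 6.40 and 9.12 CPM in white light. GAI had 61.9, 70.3 and 54.4 CPM under UV-B and 103, 57.8 and 85.3 CPM in white light. For RGL3 and GAI too the UV-B libraries lay within the spread of the white-light libraries or overlapped it, and replicate 2 was the low white-light library in both. GID1A was the 1 member whose libraries did not overlap in uvr8-6, with 20.8 to 24.9 CPM under UV-B and 26.0 to 26.9 CPM in white light, and it was not called (log2 fold change -0.19 ± 0.09 SE, edgeR adjusted p = 0.404). Such separation was met in 19% of all genes tested.

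A call in wild type and none in uvr8-6 does not show that the responses differ, so the difference itself was tested. It passed for RGL1, whose fitted fall under UV-B was smaller in uvr8-6 (log2 fold change -0.26) than in wild type (-1.24). The difference, uvr8-6 minus wild type, was 0.98 ± 0.25 SE on the log2 scale (edgeR adjusted p = 0.0331). For differences of the responses, higher or lower in uvr8-6 gives the sign of this subtraction. RGL1 is 1 of 8 members, against 6.6% of all genes tested, of which 1.72% were higher in uvr8-6 and 4.88% lower. For GID1B the difference was -0.33 (95% interval -0.62 to -0.03, edgeR adjusted p = 0.196) and for RGL3 it was 0.61 (95% interval 0.02 to 1.21, edgeR adjusted p = 0.229), so neither passed, and GAI had 0.46 (95% interval -0.20 to 1.11). The RGL1 call sat close to the threshold: it ended in 8 of 12 fits that left out 1 library, those without wild-type white-light replicate 1, wild-type UV-B replicate 1 or 3, uvr8-6 white-light replicate 2 or 3, or uvr8-6 UV-B replicate 1, 2 or 3, with edgeR adjusted p between 0.052 and 0.0798 and differences between 0.76 and 1.04. It also ended with both white-light replicate 2 libraries left out (0.97, edgeR adjusted p = 0.0658).

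Under UV-B the genotypes were compared directly, uvr8-6 over wild type, and 3 of 8 members were called, against 23.5% of all genes tested, 2 of them higher (9.18% of genes) and 1 lower (14.4%). RGL1 was 2.24-fold higher in uvr8-6, at 17.0, 19.5 and 16.7 CPM against 6.65, 8.89 and 8.24 CPM in wild type, with no overlap (log2 fold change 1.16 ± 0.18 SE, edgeR adjusted p = 0.000404). RGL3 was 1.62-fold higher in uvr8-6 (0.69 ± 0.20 SE, edgeR adjusted p = 0.0212) and GID1B was lower (-0.34 ± 0.10 SE, edgeR adjusted p = 0.0196). RGL2 also had groups with no overlap, 3.87 to 5.09 CPM in uvr8-6 and 3.41 to 3.50 CPM in wild type, and was not called (0.43 ± 0.25 SE, edgeR adjusted p = 0.23). That makes 4 members without overlap, against 43.2% of all genes. The tissue markers also moved here. None of the 5 green-tissue genes (RBCS1A, CAB1, CAB2, PSBO1 and PSAD1) was called, 4 had an unadjusted edgeR p under 0.05, their median log2 fold change was -0.54, and their sum was 21714 to 39065 CPM in uvr8-6 and 31157 to 45993 CPM in wild type. Of 4 root genes tested 1, COBL9, was higher in uvr8-6 (0.67 ± 0.23 SE, edgeR adjusted p = 0.0461). Seed storage transcripts (CRA1, CRU3 and SESA1) summed to 1.68, 51.0 and 1.77 CPM in uvr8-6 under UV-B, in the order of the replicates. In wild type under UV-B they summed to 0.28 to 0.78 CPM. CRU3 passed the filter only through the uvr8-6 UV-B libraries, so it is a description with no test. CRA1 was called higher in uvr8-6 under UV-B (4.82 ± 1.45 SE, edgeR adjusted p = 0.0259), with 1.26 to 31.1 CPM in its libraries there. The part of these markers in the member calls was not tested. This comparison shares its wild-type UV-B libraries with the one above and is not a second measure of them. RGL1 was called in every fit that left out 1 library (edgeR adjusted p 0.00116 to 0.0029). The RGL3 call ended without wild-type UV-B replicate 1 or 3 or uvr8-6 UV-B replicate 1 or 2 (edgeR adjusted p 0.0505 to 0.0856), and the GID1B call ended without wild-type UV-B replicate 1, or uvr8-6 UV-B replicate 1 or 3 (0.0758 to 0.0915), with upper-quartile scaling (0.0895), and when the 6 UV-B libraries were fitted alone (0.076).

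In white light no member differed between uvr8-6 and wild type by the test: 0 of 8 were called by edgeR, none had an unadjusted p under 0.05, DESeq2 and limma-voom called none, and 0.0144% of all genes were called. RGL1 had 25.4, 17.9 and 20.4 CPM in uvr8-6 and 24.2, 16.7 and 15.4 CPM in wild type, with a log2 fold change of 0.18 (95% interval -0.20 to 0.56). GID1B had 13.2 to 14.1 CPM in uvr8-6 and 13.0 to 14.6 CPM in wild type, with a log2 fold change of -0.02 (95% interval -0.23 to 0.20). Replicate 2 was the low library for GAI and RGL3 in both genotypes, and for RGL1 in uvr8-6.

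What the loss of PIF4 and PIF5 did was asked in white light. The DELLA genes RGL1 and RGL3 were lower in pif4-101 pif5-1 than in wild type and no member was called higher, 2 of 8 against 5.26% of all genes tested, and 2 lower against 3.54% called lower. RGL1 had 7.76, 10.4 and 9.05 CPM in pif4-101 pif5-1 and 24.2, 16.7 and 15.4 CPM in wild type. The groups did not overlap, and RGL1 was 2.06-fold lower (log2 fold change -1.04 ± 0.18 SE, edgeR adjusted p = 0.0066). RGL3 had 4.30, 4.24 and 4.78 CPM in pif4-101 pif5-1 and 9.76, 6.08 and 8.54 CPM in wild type, again without overlap (-0.87 ± 0.20 SE, edgeR adjusted p = 0.0229). The RGL3 call ended without wild-type replicate 1 or 3 or pif4-101 pif5-1 replicate 1 or 3 (edgeR adjusted p 0.0647 to 0.106) and in the 6 white-light libraries of this comparison fitted alone (0.0713).

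GAI had 61.2, 61.7 and 54.9 CPM in pif4-101 pif5-1 and 117, 62.0 and 87.7 CPM in wild type. All 3 mutant libraries lay below all 3 of wild type, the lowest of which is replicate 2, and the log2 fold change of -0.58 ± 0.22 SE was not called (edgeR adjusted p = 0.143). It was called without wild-type replicate 2 (-0.77, edgeR adjusted p = 0.0431) and without replicate 2 of both white-light groups (-0.76, edgeR adjusted p = 0.0116). RGL2 had 10.9, 4.84 and 6.71 CPM in pif4-101 pif5-1, the highest value in replicate 1, and 5.16, 4.22 and 5.02 CPM in wild type. The groups overlapped, and its log2 fold change of 0.63 ± 0.24 SE was not called (edgeR adjusted p = 0.144), except without mutant replicate 2 (0.87, edgeR adjusted p = 0.0274). RGA had 106, 129 and 116 CPM in the mutant and 150, 126 and 134 CPM in wild type (-0.22 ± 0.10 SE, edgeR adjusted p = 0.252). Of the receptors, GID1B had 13.0, 12.8 and 12.8 CPM in the mutant and 13.0, 14.6 and 13.6 CPM in wild type (-0.09, 95% interval -0.31 to 0.12), and neither GID1A nor GID1C was called. In all 4 members had no overlap, RGL1, RGL3, GAI and, narrowly, GID1B, against 21% of all genes tested.

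The tissue markers moved with this comparison. The summed level of 5 green-tissue genes (RBCS1A, CAB1, CAB2, PSBO1 and PSAD1) was 53116 to 66555 CPM in pif4-101 pif5-1 and 30429 to 42055 CPM in wild type in white light, with no overlap, none of the 5 genes was called alone, 4 had an unadjusted edgeR p under 0.05, and the median log2 fold change of the 5 was 0.60. The summed level of 5 root genes (NRT2.1, IRT1, COBL9, EXPA7 and PYK10) was 3155 to 6757 CPM in the mutant and 5890 to 8608 CPM in wild type. These sums overlapped and were nearly all PYK10, which averaged 4890 CPM in the mutant and 7003 CPM in wild type. In the same order IRT1 averaged 6.01 and 11.8 CPM and NRT2.1 0.011 and 0.065 CPM. COBL9 (15.1 and 12.1 CPM) and EXPA7 (21.2 and 18.5 CPM) went the other way. Of 4 root genes tested 0 were called. The part of tissue makeup in the lower RGL1 and RGL3 was not tested. In wild type the green-tissue sum was 31157 to 45993 CPM under UV-B and 30429 to 42055 CPM in white light, and these overlapped. Of the 5 green-tissue genes 1 was called higher in wild type under UV-B, RBCS1A, at 9104 ± 1900.5 CPM under UV-B and 4734 ± 645 CPM in white light (SD, n = 3 each; log2 fold change 0.94 ± 0.25 SE, edgeR adjusted p = 0.011). The root sum in wild type was 6848 to 10420 CPM under UV-B and 5890 to 8608 CPM in white light, which overlapped. It too was nearly all PYK10, at 8712 and 7003 CPM on average, while COBL9 averaged 9.51 and 12.1 CPM in the same order. Of 4 root genes tested 1 was called lower, IRT1, at 1.43 ± 1.57 CPM under UV-B and 11.8 ± 3.2 CPM in white light (-3.06 ± 0.67 SE, edgeR adjusted p = 0.00336). The part of these marker changes in the calls on GID1B, GAI, RGL1 and RGL3 was not tested.

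Set side by side, the UV-B response of wild type and the difference of pif4-101 pif5-1 share the wild-type white-light libraries, so their signs are not independent. RGL1 had log2 fold changes of -1.24 under UV-B and -1.04 in the mutant, and RGL3 had -0.84 and -0.87. GAI had -0.85 under UV-B and -0.58 in the mutant. GID1B had 0.53 under UV-B and -0.09 in the mutant, and RGL2 had -0.47 and 0.63. No library of pif4-101 pif5-1 was exposed to UV-B here.

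**Figure D3:**
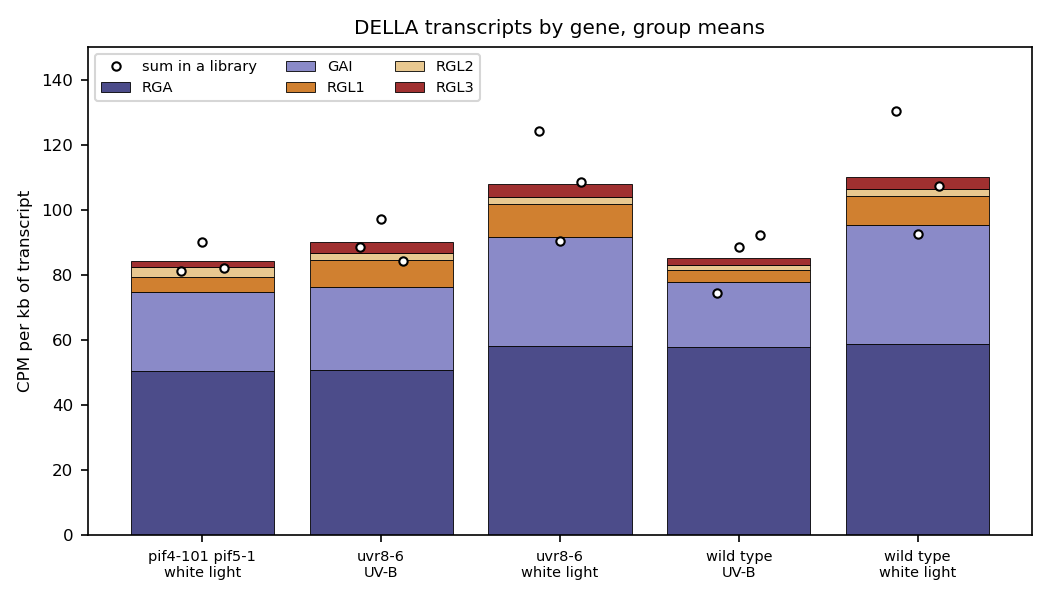
Mean CPM per kb of transcript of the 5 DELLA genes, stacked (vertical axis from 0) for each group (horizontal axis), with the sum in each of the 3 libraries as open circles. RGA makes up more than the other genes together in every bar, and the wild-type UV-B sums (74.5 to 92.3) lie below those in white light (92.4 to 130).

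Levels of different genes were compared per length, as CPM per kb of transcript. RGA led the DELLA genes with 57.6 ± 5.7 CPM per kb in wild type under UV-B and 58.9 ± 5.1 in white light (SD, n = 3 each). GAI followed with 20.1 ± 3.1 CPM per kb under UV-B and 36.4 ± 11.2 in white light, and RGL1 with 3.81 ± 0.55 under UV-B and 9.01 ± 2.27 in white light. RGL3 had 2.01 ± 0.33 CPM per kb under UV-B and 3.60 ± 0.83 in white light, and RGL2 had 1.50 ± 0.02 and 2.07 ± 0.22 in the same order. The sum of the 5 DELLA genes was 85.1 ± 9.4 CPM per kb in wild type under UV-B and 110.0 ± 19.2 in white light, and the libraries of the groups fell just short of overlapping. In uvr8-6 the DELLA sum was 89.9 ± 6.7 CPM per kb under UV-B and 107.8 ± 17.0 in white light, and those overlapped. In pif4-101 pif5-1 it was 84.4 ± 4.9 CPM per kb.

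The makeup of the DELLA transcripts shifted along with the sum. RGA held 66.7% to 68.6% of the DELLA sum in wild type under UV-B and 49.4% to 58.8% in white light, without overlap. In uvr8-6 RGA held 55.4% to 57.8% under UV-B and 50.8% to 59.2% in white light. RGL1 held 4.47% ± 0.31 of the sum in wild type under UV-B and 8.16% ± 1.10 in white light. Among the receptors GID1B held 28.7% ± 0.7 of the GID1 sum under UV-B and 21.0% ± 1.8 in white light in wild type, while the sum itself was 34.0 ± 2.0 CPM per kb under UV-B and 32.2 ± 1.4 in white light. These shares are descriptions over the chosen members, with no test.

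How the DELLA genes varied together over the 15 libraries is described by correlations. RGL1 and RGL3 had Pearson's r = 0.94 on log2 CPM, GAI and RGL3 0.84, and GAI and RGL1 0.77. With the group means removed these were 0.69, 0.88 and 0.73. RGA had r = 0.36 with RGL1, 0.57 with GAI and 0.45 with RGL3 over all libraries, and 0.91 with RGL1, 0.77 with GAI and 0.72 with RGL3 with the group means removed. RGL2 did not share this: it had r = -0.47 with RGA, -0.04 with RGL1, 0.004 with RGL3 and 0.25 with GAI over all libraries. With the group means removed these were -0.33, -0.22, 0.28 and 0.26. GID1B had r = -0.70 with RGL2, -0.60 with GAI and -0.51 with GID1A over all libraries. In the same order it had -0.33, -0.44 and -0.39 with the group means removed. These values describe libraries that share groups and depth and carry no p.

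The genes of most like profile, among 15169 genes of at least 5 CPM on average, were then taken for each member. RGL3 was most like AT5G44440, a berberine-bridge-enzyme-like oxidoreductase (r = 0.98, Spearman's rho = 0.96), and IAA19, an Aux/IAA repressor of auxin signalling (r = 0.97, rho = 0.95). RGL1 was most like AT2G14900, annotated as a gibberellin-regulated family protein (r = 0.97, rho = 0.92), and XTH17, a cell wall xyloglucan transglucosylase (r = 0.96, rho = 0.96). GAI was most like YUC9, an auxin biosynthesis enzyme (r = 0.96, rho = 0.81), and HAT3, a homeodomain-leucine zipper factor (r = 0.96, rho = 0.86). For GAI and YUC9 the likeness was as high with the group means removed (0.96), and both are low in replicate 2 of the wild-type and uvr8-6 white-light groups. GID1B was most like NAC003, a gene of the NAC transcription factor family (r = 0.97, rho = 0.86), and AT2G48130 (r = 0.95, rho = 0.89). RGA was most like AILP1 (r = 0.94, rho = 0.96). RGL2 was most like AT4G28990 and the tubulin gene TUB2 (r = 0.94 each, rho = 0.86 and 0.88). GID1A was most like the methylesterase gene MES10 (r = 0.88, rho = 0.89) and GID1C like AT5G20050 (r = 0.81, rho = 0.60). With the group means removed, r with the first gene named was 0.91 for RGL3, 0.75 for RGL1 and 0.83 for GID1B. It was 0.89 for RGA, 0.89 for RGL2, 0.87 for GID1A and 0.80 for GID1C, and 0.74 for GID1B with AT2G48130.

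**Figure D4:**
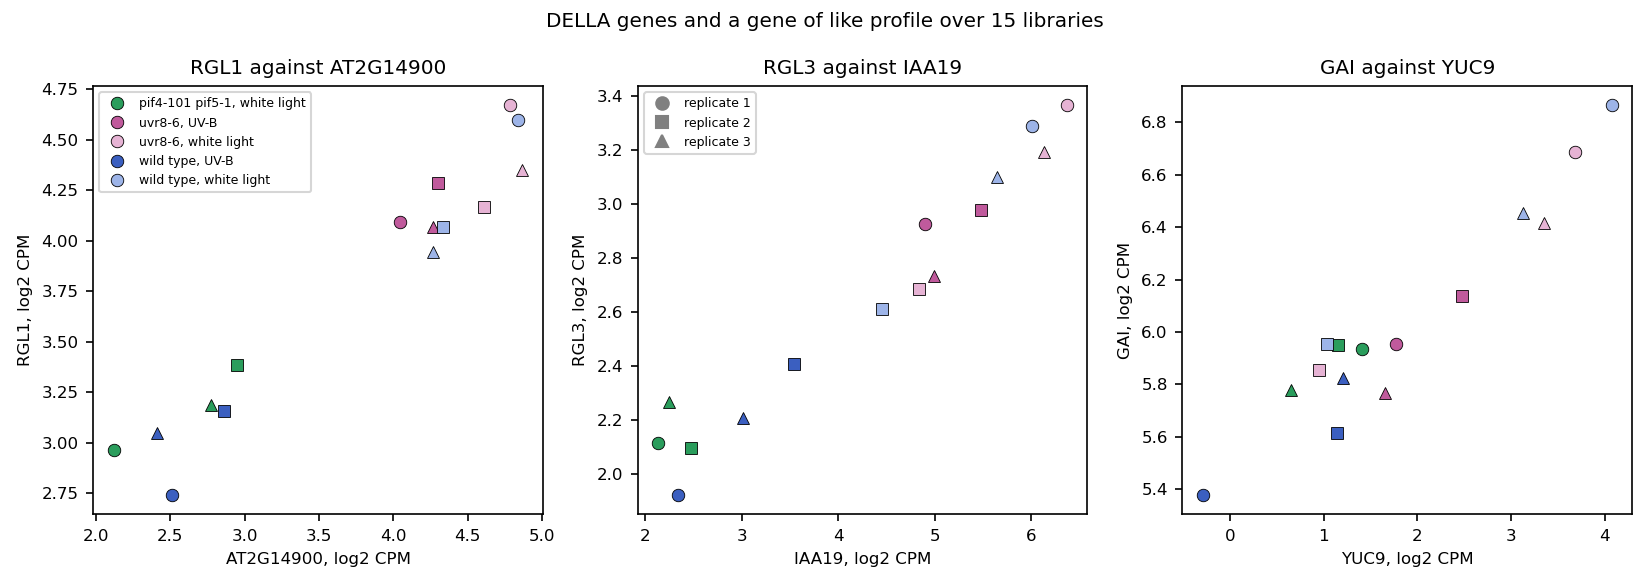
Log2 CPM of RGL1, RGL3 and GAI (vertical axes) against a gene of like profile (horizontal axes) in 15 libraries; colours are groups and symbols are replicates. The libraries of pif4-101 pif5-1 and of wild type under UV-B lie at the low end for RGL1 and RGL3, and r is 0.97 in both panels.

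These like genes changed with their member. AT2G14900 averaged 6.06 ± 1.04 CPM in wild type under UV-B and 22.7 ± 5.2 CPM in white light (SD, n = 3 each; log2 fold change -1.90 ± 0.20 SE, edgeR adjusted p = 8.57e-06). It averaged 18.4 ± 1.7 CPM in uvr8-6 under UV-B and 27.0 ± 2.4 CPM in white light, and 6.27 ± 1.76 CPM in pif4-101 pif5-1. IAA19 averaged 8.20 ± 3.29 CPM in wild type under UV-B and 45.3 ± 21.5 CPM in white light (-2.46 ± 0.43 SE, edgeR adjusted p = 0.000591), and 4.86 ± 0.60 CPM in pif4-101 pif5-1. NAC003 averaged 10.3 ± 1.2 CPM in wild type under UV-B and 3.70 ± 0.83 CPM in white light (1.48 ± 0.22 SE, edgeR adjusted p = 0.000187). Likeness was chosen on these libraries, so the changes are a description of what chose the genes.

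**Figure D5:**
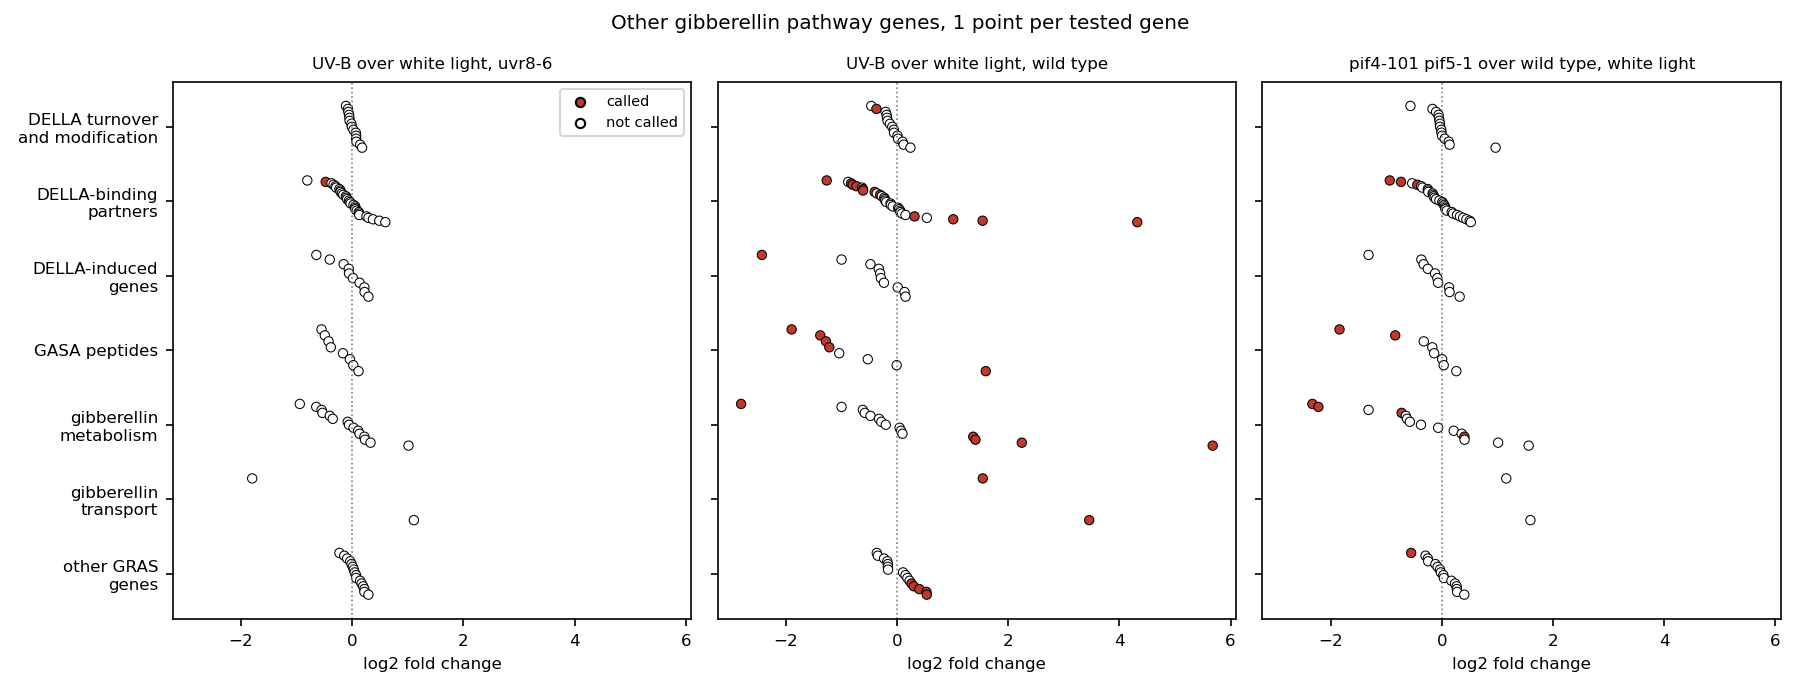
Log2 fold change (horizontal axes) of every tested gene in 7 lists around the members (rows), in 3 comparisons; filled points passed an edgeR adjusted p of 0.05. In uvr8-6 1 point is filled, and in wild type the filled points include GA20OX1 at -2.81 and MYB12 at 4.32. The filled points of GA3OX2 and SWEET13 belong to genes that passed the filter on low counts only through wild type under UV-B.

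The other genes of the pathway were read as lists, in the order of the pathway. Of 15 genes of gibberellin synthesis and inactivation tested, 4 were higher and 1 lower in wild type under UV-B, against 16.1% and 11.3% of all genes, with a list median of -0.20. The 4 include GA3OX2, which passed the filter on low counts only through wild type under UV-B and so had to differ. Without it and GA20OX5, described below, 2 of 13 tested were higher and 1 lower, with a median of -0.28, against the same shares. GA20OX1, which makes precursors of active gibberellin, averaged 1.21 ± 0.58 CPM under UV-B and 8.52 ± 3.49 CPM in white light (SD, n = 3 each; log2 fold change -2.81 ± 0.40 SE, edgeR adjusted p = 0.000128). GA3OX2, which makes the active hormone, had 129, 63 and 85 reads under UV-B and 0, 4 and 1 reads in white light, given as a description with no test. The inactivating enzymes GA2OX8 (2.31 ± 0.33 CPM under UV-B and 0.50 ± 0.21 CPM in white light) and GA2OX1 (1.88 ± 0.54 and 0.72 ± 0.35 CPM in the same order) were called higher, and so was GA20OX5 (log2 fold change 1.41 ± 0.47 SE, from 25 reads under UV-B and 9 in white light over 3 libraries each), which passed the filter only through the uvr8-6 UV-B libraries. With upper-quartile scaling the split of the 15 was 4 higher and 4 lower, where over all genes it was 2647 higher and 3864 lower. With DESeq2 the split of the 15 was 3 higher and 3 lower, and without wild-type white-light replicate 2 it was 3 higher and 4 lower. It was 2 higher and 1 lower without any one of 3 wild-type libraries, replicate 3 in white light and replicates 2 and 3 under UV-B. Without GA3OX2 and GA20OX5, the difference of the responses passed for GA2OX8, lower in uvr8-6, and for GA2OX6, higher in uvr8-6. That is 1 lower and 1 higher of 13, against 4.88% and 1.72% of all genes. The GA2OX6 call ended in 8 of 12 fits without 1 library. With upper-quartile scaling or DESeq2 the list of 15, GA3OX2 included, had 3 higher and 2 lower. Over all genes upper-quartile scaling gave 578 higher and 740 lower.

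In pif4-101 pif5-1, 1 of the 15 metabolism genes was higher than in wild type and 3 were lower, against 1.72% and 3.54% of all genes. GA20OX1 averaged 1.68 ± 0.38 CPM in the mutant and 8.52 ± 3.49 CPM in wild type in white light (-2.33 ± 0.38 SE, edgeR adjusted p = 0.00454). GA2OX1 (-2.22 ± 0.59 SE) and GA2OX6 (-0.72 ± 0.12 SE) were also lower, and KO, an early enzyme of the route, was higher (0.40 ± 0.08 SE). In the 6 libraries of this comparison fitted alone 1 of these genes passed.

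Of 15 genes for the machinery that modifies and degrades DELLA proteins, 1 was called in wild type under UV-B, and it was lower, against 27.4% of all genes called and 11.3% called lower. An unadjusted p under 0.05 was met by 4 of the 15. The gene called was the SUMO protease gene OTS2 (20.6 ± 2.4 CPM under UV-B and 26.6 ± 3.2 CPM in white light, -0.37 ± 0.12 SE, edgeR adjusted p = 0.0268). The F-box gene SLY1 did not pass (-0.13 ± 0.13 SE, edgeR adjusted p = 0.513). The count for this list ranged from 0 to 3 lower. It was 3 with upper-quartile scaling, where 3864 of all genes were lower. It was 2 with DESeq2, with a replicate block or without wild-type white-light replicate 2. In the 6 wild-type libraries fitted alone it was 0. It was also 0 when replicate 3 of white light, or either of replicates 2 and 3 of UV-B, was left out. In pif4-101 pif5-1 none of the 15 was called by edgeR, against 5.26% of all genes, 2 had an unadjusted p under 0.05, and DESeq2 called 1.

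Of 30 genes for transcription factors and other proteins that DELLAs bind, 4 were higher and 8 lower in wild type under UV-B. The shares of all genes were 16.1% and 11.3%. With upper-quartile scaling 2 were higher and 13 lower, where over all genes 2647 were higher and 3864 lower. JKD, an IDD zinc finger gene, averaged 27.5 ± 0.8 CPM under UV-B and 66.2 ± 4.5 CPM in white light (-1.27 ± 0.13 SE, edgeR adjusted p = 5.7e-06). GAF1, another IDD gene known to work with DELLAs as a coactivator complex, averaged 19.1 ± 2.2 CPM under UV-B and 31.6 ± 3.7 CPM in white light (-0.73 ± 0.10 SE, edgeR adjusted p = 9.89e-05). PIF3, a bHLH factor that DELLAs keep off DNA, fell by 0.83 on the log2 scale (edgeR adjusted p = 0.00189). MYB12, a regulator of flavonol synthesis, averaged 67.2 ± 5.6 CPM under UV-B and 3.39 ± 0.50 CPM in white light (4.32 ± 0.19 SE, edgeR adjusted p = 1.5e-09). In uvr8-6 GAF1 was the 1 of the 30 called, against 1.12% of all genes (-0.48 ± 0.10 SE, edgeR adjusted p = 0.0361). The difference of the responses passed for JKD, PIF3, MYB12 and SPL15. Of these 2 were higher and 2 lower in uvr8-6, against 1.72% and 4.88% of all genes. That split was 3 higher and 1 lower with upper-quartile scaling, where over all genes it was 578 higher and 740 lower. It was 1 and 1 without wild-type white-light replicate 1 or 3, wild-type UV-B replicate 2 or 3, or uvr8-6 UV-B replicate 3. In pif4-101 pif5-1 JKD (-0.94 ± 0.13 SE), BP (-0.74 ± 0.17 SE) and BES1 (-0.44 ± 0.10 SE) were lower than in wild type, against 3.54% of all genes. None of the 30 was higher, against 1.72%. Of the 3, 1 passed without wild-type replicate 1 or 3, without mutant replicate 1, or in the 6 libraries fitted alone.

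Genes that DELLA proteins are known to induce were tested as a list of 10. In wild type under UV-B, against 27.4% of all genes called, 1 of the 10 was called. It was LBD40, at 0.52 ± 0.26 CPM under UV-B and 2.83 ± 1.00 CPM in white light (-2.43 ± 0.50 SE, edgeR adjusted p = 0.0022). GA20OX2 (-0.999 ± 0.374 SE, edgeR adjusted p = 0.0617), XERICO (-0.33 ± 0.15 SE, 0.12) and SCL3 (0.15 ± 0.11 SE, 0.357) did not pass. With upper-quartile scaling 3 were called lower, where 3864 of all genes were. With DESeq2, without white-light replicate 2, and in the 6 wild-type libraries alone, 2 were called lower. In pif4-101 pif5-1 none of the 10 was called by edgeR, against 5.26% of all genes, 4 had an unadjusted p under 0.05, and DESeq2 called 1.

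GASA genes encode small cysteine-rich peptides, several of which are induced by gibberellin. Of 8 tested, 1 was higher and 4 were lower in wild type under UV-B, against 16.1% and 11.3% of all genes, with a list median of -1.13. GASA6 averaged 98.6 ± 5.4 CPM under UV-B and 257 ± 26 CPM in white light (log2 fold change -1.38 ± 0.12 SE, edgeR adjusted p = 1.21e-06). GASA4 averaged 129.6 ± 11.3 CPM under UV-B and 315 ± 53 CPM in white light (-1.28 ± 0.20 SE, edgeR adjusted p = 0.000209). GASA14 was also lower (-1.22 ± 0.23 SE), as was AT2G14900 described above, and AT1G22690 was higher, at 38.8 ± 6.3 CPM under UV-B and 12.9 ± 2.1 CPM in white light. In uvr8-6 none of the 8 was called by edgeR or limma-voom, against 1.12% of all genes by edgeR. DESeq2 called 1, and 2 had an unadjusted edgeR p under 0.05. The difference of the responses passed for 4 of the 8, against 6.6% of all genes. GASA6 (0.89 ± 0.17 SE), AT2G14900 (1.35 ± 0.27 SE) and GASA14 (1.33 ± 0.32 SE) were higher in uvr8-6 and AT1G22690 was lower (-1.64 ± 0.46 SE). The lower call on AT1G22690 ended in 10 of 12 fits without 1 library, and with upper-quartile scaling. Under that scaling 4 were higher and 0 lower, where over all genes 578 were higher and 740 lower. Leaving out 1 library gave 2 to 5 called, at 2 without wild-type white-light replicate 1, wild-type UV-B replicate 3 or uvr8-6 UV-B replicate 3. In pif4-101 pif5-1 AT2G14900 (-1.84 ± 0.20 SE) and GASA14 (-0.84 ± 0.22 SE) were lower than in wild type and none was higher, against 3.54% and 1.72% of all genes. That count was 1 without wild-type replicate 1 or 3, without any one of the mutant replicates, with limma-voom, and in the 6 libraries fitted alone.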

How the data were processed

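The members and the gene lists around them were chosen with earlier results of these data known. Per the labels' protocols, each library started from 400 ng of RNA, used a stranded mRNA kit and was read as 100 bp single ends. Tools listed in the submitters' processing notes are HTSeq 0.9.1, the aligner STAR 2.5.3a, edgeR 3.22.3 and FastQC 0.11.5, with TAIR10 as the build. The deposited table of whole read counts per gene was used for all values. The authors' deposited normalized table (unit treated as signal, its scaling not given in the sources used here) served only for its set of 21655 genes in an alternative. Counts of 15 libraries were fitted in 1 edgeR 4.0.16 quasi-likelihood model (R 4.3.3) with a term per group, TMM scaling (factors 0.86 to 1.11) and edgeR's default expression filter by group. P-values, two-sided, were adjusted by Benjamini-Hochberg over 20833 genes and called under 0.05, with 10 residual degrees of freedom. CPM ± SD use TMM library sizes, and the standard error is the log2 fold change over the root of its F value. The scripts were tested on simulated data. Replicates of every group differed beyond counting noise (chi-square over degrees of freedom 7.23 to 48.6).

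The text names all 8 members; of each list, the called genes of a comparison, at most 4 per direction, lowest p first; for likeness, the 2 genes with the highest r; other values were chosen after they were seen. Same-numbered replicates of uvr8-6 and wild type in white light deviated together (r = 0.32, 0.58 and 0.37), a pairing that comes from the data and not from the labels; no other comparison had all 3 pairs above 0.1. Alternatives were upper-quartile scaling and DESeq2 size factors, no filter and a filter of 10 reads, DESeq2 1.42.0, limma-voom 3.58.1, a fit of only the compared libraries, a replicate block, and the omission of each library in turn. RefSeq TAIR10.1 sequences were matched by locus ID for all 8 members; it updates the TAIR10 build, and no coordinate of the deposited tables was used. Motifs and sequence identity were computed with biopython 1.88.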

Additional observations from a re-analysis of the deposited data

Results flagged for a closer look

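The UV-B response of RGL1 differed between the genotypes, uvr8-6 minus wild type, by 0.98 on the log2 scale (edgeR interaction test, adjusted p = 0.0331). RGL1 had 17.0 to 19.5 CPM under UV-B and 17.9 to 25.4 CPM in white light in uvr8-6, and 6.65 to 8.89 CPM under UV-B and 15.4 to 24.2 CPM in white light in wild type. The call was near the threshold and ended in 8 of 12 fits without 1 library.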

How the results depend on the processing

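Over the alternatives 808 member values were computed, of which 751 kept their direction and side of the threshold, 24 lost a call, 4 gained one and 29 changed sign; every change of sign was in a value that was not called, and the cause was not tested. In wild type under UV-B the calls of GID1B (0.43 to 0.57), RGL1 (-1.40 to -1.02) and RGL3 (-1.03 to -0.69) held in all 16 alternatives, as did RGL1 in pif4-101 pif5-1 (-1.17 to -0.82). The number of members called fell to 1 in pif4-101 pif5-1 with the compared libraries alone and to 0 for the difference of the responses with both white-light replicate 2 libraries left out. Leaving out 1 library gave 0 to 1 members for the difference of the responses, 1 to 3 for pif4-101 pif5-1 and 1 to 3 for uvr8-6 over wild type under UV-B. The sign changed for uvr8-6 over wild type in white light in RGL2 (0.0067 with upper-quartile scaling, 6e-04 with no filter, 0.0315 without both replicate 2 libraries), and under UV-B in GID1A (0.0861 with upper-quartile scaling, 0.0051 with the compared libraries alone) and GID1C (0.0995 and 0.0185 in the same order). Leaving out 1 library, log2 fold changes that changed sign ranged as follows. Wild type under UV-B gave -0.1327 to 0.0087 for GID1A and -0.1057 to 0.0507 for RGA. In white light uvr8-6 over wild type gave -0.0592 to 0.0265 for GID1B, -0.0951 to 0.0482 for RGA, -0.3188 to 0.1299 for GAI, -0.096 to 0.1083 for RGL2 and -0.0916 to 0.2432 for RGL3. Under UV-B uvr8-6 over wild type gave -0.0698 to 0.0899 for GID1A and -0.0361 to 0.0421 for GID1C. RGL2 gave -0.155 to 0.1114 for UV-B in uvr8-6, and GID1A -0.0162 to 0.1184 in pif4-101 pif5-1.

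Over all genes, edgeR called 233 for UV-B in uvr8-6, DESeq2 640 and fits without 1 library 43 to 393; for pif4-101 pif5-1 the counts were 1095, 1797 and 335 to 1459, with 278 in the compared libraries alone. The 3 genes called for uvr8-6 in white light were 6 with DESeq2, and the 1375 for the difference of the responses were 877 without uvr8-6 white-light replicate 3. With upper-quartile scaling the median over all genes tested in wild type under UV-B was -0.11 on the log2 scale, against -0.01, and 2647 genes were called higher and 3864 lower, against 3354 and 2346. In the same way uvr8-6 over wild type under UV-B had 3142 higher and 2289 lower, against 1912 and 2991, and the difference of the responses 578 and 740, against 359 and 1016. With the replicate block the UV-B calls in uvr8-6 were 367; the block changed no call on the members (4, 0, 1, 0, 3 and 2 of 8 in the order wild type UV-B, uvr8-6 UV-B, difference, uvr8-6 in white light, uvr8-6 under UV-B, pif4-101 pif5-1). RGL2 and RGL3 were the members of lowest level, at 3.41 to 10.9 CPM.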

Other observations

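DELLA proteins are one branch of the GRAS family, and 16 other GRAS genes chosen as a list were read beside them. Of these 16, all tested, 5 were higher and none lower in wild type under UV-B, against 16.1% of all genes higher and 11.3% lower, with a list median of 0.13 on the log2 scale. SCR, a regulator of radial patterning in roots and shoots, averaged 82.6 ± 10.8 CPM under UV-B and 57.0 ± 1.6 CPM in white light (SD, n = 3 each; 0.53 ± 0.09 SE, edgeR adjusted p = 0.000493). SCL1 (0.53 ± 0.09 SE), HAM1 (0.40 ± 0.09 SE) and SCL5 (0.26 ± 0.08 SE) were also higher. With upper-quartile scaling the split was 3 higher and 3 lower, where over all genes it was 2647 higher and 3864 lower. Fits without 1 library gave 3 to 4 higher and 0 to 1 lower, and 3 were higher in the 6 wild-type libraries fitted alone. In uvr8-6 none was called by edgeR, DESeq2 or limma-voom, against 1.12% of all genes by edgeR, and 3 had an unadjusted edgeR p under 0.05. The difference of the responses was called for none of the 16, against 6.6% of all genes, with a list median of -0.02. In pif4-101 pif5-1 1 of the 16 was called, against 5.26% of all genes. PAT1, a gene of phytochrome A signalling, was lower than in wild type (-0.55 ± 0.13 SE, edgeR adjusted p = 0.0262). That call ended without wild-type replicate 3, without mutant replicate 1 or 3, and in the 6 libraries fitted alone.

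Of 2 genes for gibberellin transport that passed the filter on low counts, NPF3.1 was higher in wild type under UV-B. It averaged 8.12 ± 0.66 CPM under UV-B and 2.81 ± 1.22 CPM in white light (SD, n = 3 each, 1.54 ± 0.33 SE, edgeR adjusted p = 0.0027). In uvr8-6 NPF3.1 averaged 5.50 ± 1.82 CPM under UV-B and 2.53 ± 0.85 CPM in white light (log2 fold change 1.11, not called by edgeR). DESeq2 called 1 transport gene higher there. The difference of the responses of NPF3.1, -0.43, was not called. In pif4-101 pif5-1 it averaged 6.22 ± 1.52 CPM (1.16 over wild type in white light, not called by edgeR). SWEET13 passed the filter only through wild type under UV-B, so its values are a description with no test. It had 11, 14 and 12 reads under UV-B and 1, 1 and 1 in white light.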
